A study of Mus musculus with 9 samples.

Results

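The regulators of G-protein signalling (RGS) are a family of intracellular proteins that shorten signalling by G-protein-coupled receptors. Of the 24346 genes listed in the data, 9 were described here, namely Rgs1, Rgs2, Rgs3, Rgs10, Rgs13, Rgs14, Rgs16, Rgs18 and Rgs19. They were chosen by symbol and selected on their FPKM in these same libraries, which were already known, so their differences between groups are given as a description with no test. RNA-seq had been performed on B cells sorted from the spleens of C57BL6 mice, and 3 groups of 3 libraries were available. FO B (Young) are follicular (FO) B cells of mice 8 weeks old and FO B (Aged) are the same population from mice 50 weeks old, both from a gate that includes B220hiCD43-CD23+CD21lo. ABCs (Aged) are age-associated B cells of mice 50 weeks old, from a gate that includes B220hiCD43-CD23-CD21loCD11b+CD11c+. All mice were wild type, and no treatment is given for any group. The labels do not say whether ABCs and FO B cells with the same number came from the same mouse.

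A receptor that binds a chemokine or lipid loads the G-alpha subunit with GTP, and G-alpha and G-beta-gamma then signal until the GTP is hydrolysed. The RGS domain binds active G-alpha and speeds this hydrolysis, mostly on the Gi and Gq families. In B cells, signalling through Gi-coupled receptors such as CXCR5, CCR7 and S1PR1 sets where a cell sits in the spleen and when it leaves, and RGS1 is the family member best known for damping it.

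Levels are given as FPKM, the mapped reads scaled to transcript length and to library size that the authors deposited for each library. Depth was about 7290000 to 8870000 mapped reads per library, as estimated from the FPKM that 1 read is worth, and 10032 to 10445 genes reached 1 FPKM. Differences were taken between means of log2(FPKM + 1), so the change of a low gene is larger than its difference shows. In these bulk samples, fewer cells that express a gene and less RNA per cell cannot be told apart. The 8 B lineage markers summed to 7778 to 9989 FPKM in ABCs and 8834 to 9216 FPKM in FO B (Aged). ABCs (Aged) replicate 3 stood apart in several genes, with for example 12.8 FPKM of Cxcr3, a chemokine receptor gene, against 140.0 and 157 FPKM in replicates 1 and 2.

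Rgs2, Rgs13, Rgs1, Rgs21 and Rgs18 lie in this order on chromosome 1 of GRCm38, all on the minus strand, and are the 5 protein-coding genes of a span of 776098 bases. Rgs2 is at chr1:143999338-144004161, Rgs13 at chr1:144138654-144177372, Rgs1 at chr1:144242296-144249242, Rgs21 at chr1:144516648-144567667 and Rgs18 at chr1:144752683-144775435. Rgs16 lies on the plus strand, 8964913 bases beyond the end of this span, at chr1:153740349-153745468. Rgs19 is at chr2:181688419-181693977, Rgs3 at chr4:62559847-62704001, Rgs10 at chr7:128373621-128418758 and Rgs14 at chr13:55369732-55384687. The transcripts of the 9 genes are distinct, since the longest stretch that any of the 36 pairs shared was 23 bases, shorter than a read. Of all windows as long as a read, 9.21% of those of Rgs3 also occur in the pseudogene Gm5763 and 6.25% of those of Rgs16 in the antisense gene Gm28513, so the levels of these 2 genes are less certain, and the other 7 share none. Rgs3 also overlaps the antisense gene Gm11209, and Rgs10 overlaps Gm15503 on its own strand.

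The promoters of the neighbours Rgs2 and Rgs13 are shown because these genes lie side by side and had different patterns, and that of Rgs16 because it was close to absent from all libraries. The sequences are from RefSeq on GRCm38.p6 and cover the 250 bases before the annotated start, 5′ to 3′ along the gene's strand. They are at chr1:144004150-144004399 on the minus strand for Rgs2, chr1:144177373-144177622 on the minus strand for Rgs13 and chr1:153740103-153740352 on the plus strand for Rgs16. Capitals mark GC boxes, the letters GGGCGG or their reverse complement.
Rgs2: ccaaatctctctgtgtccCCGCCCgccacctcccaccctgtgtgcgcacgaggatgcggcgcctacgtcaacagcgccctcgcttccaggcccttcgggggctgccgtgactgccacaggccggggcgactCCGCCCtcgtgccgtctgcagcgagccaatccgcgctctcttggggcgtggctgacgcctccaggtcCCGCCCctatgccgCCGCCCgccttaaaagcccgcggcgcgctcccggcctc
Rgs13: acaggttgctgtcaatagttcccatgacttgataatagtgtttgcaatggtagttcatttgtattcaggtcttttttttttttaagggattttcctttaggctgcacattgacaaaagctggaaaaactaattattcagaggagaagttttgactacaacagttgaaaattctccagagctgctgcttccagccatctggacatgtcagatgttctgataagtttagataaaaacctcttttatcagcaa
Rgs16: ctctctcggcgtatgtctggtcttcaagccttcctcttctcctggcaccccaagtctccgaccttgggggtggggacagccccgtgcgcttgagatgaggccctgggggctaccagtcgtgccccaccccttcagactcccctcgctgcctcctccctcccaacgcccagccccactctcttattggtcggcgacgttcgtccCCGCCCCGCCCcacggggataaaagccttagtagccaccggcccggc
Rgs2 held 4 GC boxes in a stretch of 72.4% G and C, Rgs16 held 2 that overlap in a stretch of 66.4%, and Rgs13 held none in a stretch of 36.0%. Promoters of 6 of the 9 genes were found in the table searched (not Rgs1, Rgs14 or Rgs18), some with more than 1 start. Over windows from 250 bases before to 50 bases after the start and on both strands, a GC box occurred in 5 of these 6 genes (Rgs2, Rgs3, Rgs10, Rgs16 and Rgs19) and in 35.7% of 32851 promoters. TATAAA occurred in Rgs3 and in 13.6% of all promoters. A gene was counted if any of its starts held the motif, whereas the percentages are of single promoters, so the counts and percentages are not alike. The cAMP response element TGACGTCA (1.79% of all promoters), the AP-1 site TGANTCA (7.81%), the T-box half-site TCACACCT (1.28%) and the NF-kappaB site (0.155%) did not occur in the windows of these 6 genes.

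Rgs1, Rgs2, Rgs3 and Rgs10 were higher in every ABC library than in every FO B (Aged) library, Rgs18 and Rgs19 were lower in every one, and Rgs13 and Rgs14 overlapped. That is 4 genes above and 2 below without overlap among the 8 that averaged at least 1 FPKM, whereas 26.3% of 10412 genes lay above and 26.3% below by the same rule. Nothing is read from these counts, since the genes were chosen with this contrast known. Without ABCs (Aged) replicate 3, the same 4 genes lay above and the same 2 below, where 29.8% and 31.3% of 10368 genes did, a setting added after the data were seen. The differences ran from 6.18 for Rgs1 to -2.76 for Rgs18 on the log2 scale.

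**Figure D1:**
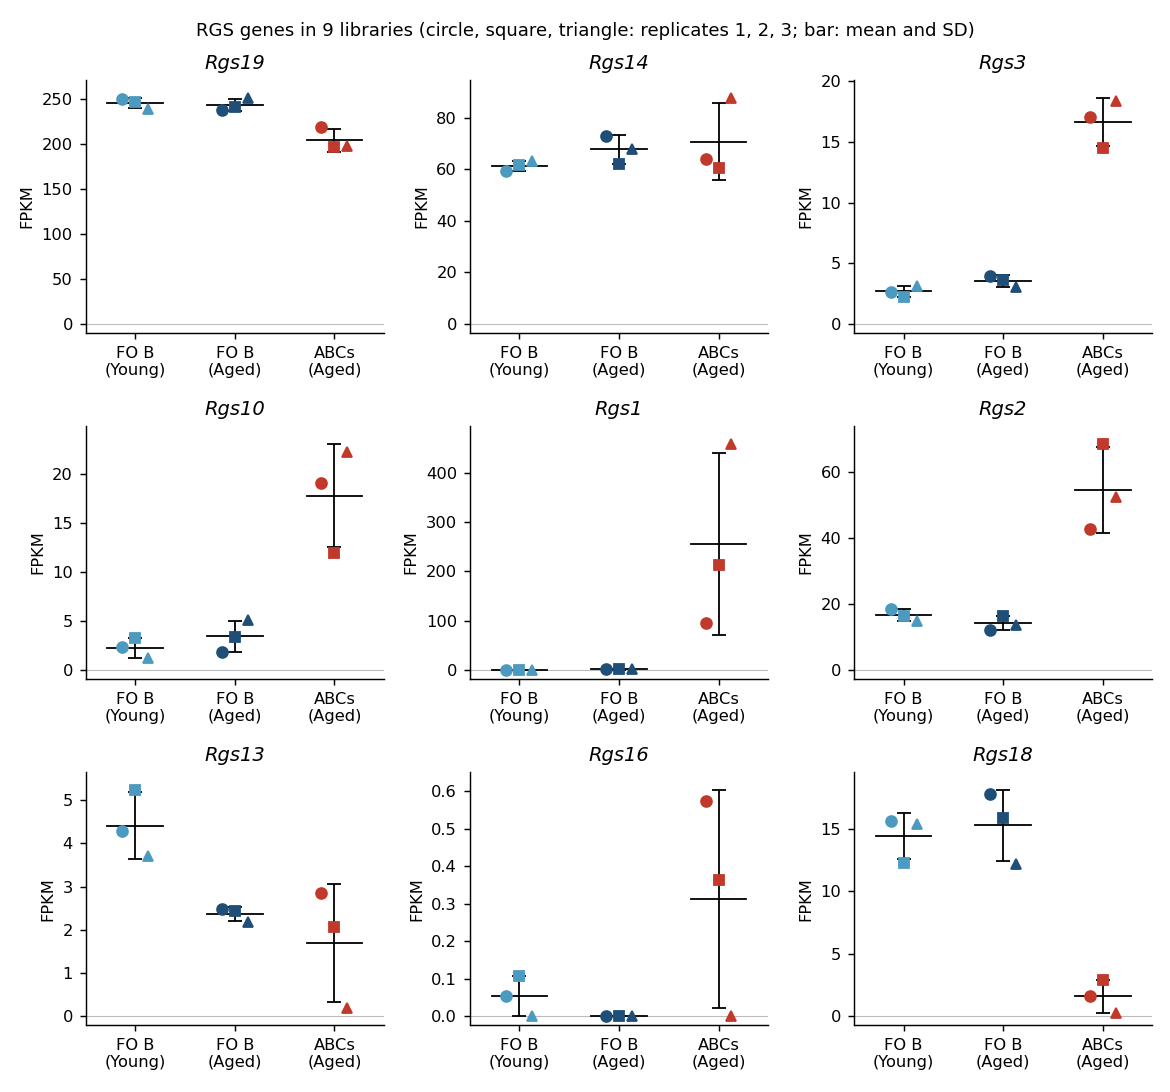
FPKM of the 9 RGS genes in each of 9 libraries (vertical axes, linear, scaled per gene), by group on the horizontal axis, with bars for the mean and SD of 3 libraries. Rgs1, Rgs2, Rgs3 and Rgs10 stand higher in all 3 ABC libraries, Rgs18 and Rgs19 lower, and the Rgs1 libraries of ABCs spread from 95.4 to 458 FPKM.

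Rgs19 and Rgs14 were the most abundant family members in FO B cells. Rgs19, also known as GAIP, acts on Gi-family subunits. Its level was 250.5, 247 and 239 FPKM in the 3 FO B (Young) libraries, 238, 241 and 251 FPKM in FO B (Aged), and 219, 197 and 197 FPKM in ABCs. The FO B groups overlapped, and the ABC libraries were below both. ABCs held 0.840 times the FO B (Aged) mean and the log2 difference was -0.25 (SE 0.06). Rgs19 ranked above 94.7% to 96.1% of the genes with at least 1 FPKM in each of the 9 libraries.

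Rgs14 carries, besides its RGS domain, Ras-binding domains and a GoLoco motif that holds inactive Gi subunits. Its level was 59.4, 61.5 and 63.1 FPKM in FO B (Young), 73.0, 62.0 and 67.9 FPKM in FO B (Aged), and 63.8, 60.5 and 87.7 FPKM in ABCs. All 3 groups overlapped. The log2 difference between ABCs and FO B (Aged) was 0.05 (SE 0.18), and it was -0.12 without ABCs (Aged) replicate 3, which held the highest level.

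Rgs1, which limits the response of B cells to chemokines, was near the lower end of measured genes in FO B cells and among the most abundant in ABCs. Its level was 1.01, 1.22 and 0.506 FPKM in FO B (Young), 1.65, 3.08 and 1.31 FPKM in FO B (Aged), and 95.4, 213 and 458 FPKM in ABCs. No 2 of the groups overlapped, with FO B (Young) lowest and ABCs highest. The FO B groups came as close as 1.22 and 1.31 FPKM. Rgs1 ranked above 2.7% to 13.7% of genes with at least 1 FPKM in FO B (Aged) and above 88.7% to 97.7% in ABCs. Reads could be recovered for it and numbered 27 in FO B (Young), 62 in FO B (Aged) and about 7265 in ABCs. The log2 difference between ABCs and FO B (Aged) was 6.18 (SE 0.70, n = 3 libraries each). The mean was 127 times as high, or, in a setting added after the data were seen, 76.7 times without ABCs (Aged) replicate 3.

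The ABC libraries were far apart in Rgs1. The highest was 4.80 times the lowest, and the SD of log2(FPKM + 1) over the 3 libraries was 1.13, larger than that of 99.0% of 10453 genes, whose median was 0.145. Immediate-early genes, which cells transcribe within minutes of a stimulus, also differed. The 8 listed summed to 487 to 541 FPKM in FO B (Young), 682 to 857 FPKM in FO B (Aged) and 1375 to 2337 FPKM in ABCs, where 7 of the 8 were above every FO B (Aged) library. Fos was at 444, 722 and 810 FPKM and Egr1 at 92.5, 168 and 227 FPKM in ABC replicates 1, 2 and 3, the same order as Rgs1, whereas Nr4a1 was at 4.36, 14.3 and 12.8 FPKM. How many of all genes follow this order was not counted, and the part of these genes in the Rgs1 level was not tested.

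Rgs2 prefers Gq-family subunits and is induced by many stimuli. Its level was 18.6, 16.3 and 15.0 FPKM in FO B (Young), 12.2, 16.4 and 13.7 FPKM in FO B (Aged), and 42.6, 68.4 and 52.3 FPKM in ABCs. The FO B groups overlapped and the ABC libraries lay above both. ABCs held 3.86 times the FO B (Aged) mean, a log2 difference of 1.86 (SE 0.22). Unlike Rgs1, it was highest in ABC replicate 2, not 3.

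Rgs3 acts on Gi and Gq subunits. It was at 2.61, 2.26 and 3.15 FPKM in FO B (Young), 3.96, 3.63 and 3.04 FPKM in FO B (Aged), and 17.1, 14.5 and 18.4 FPKM in ABCs. The ABC libraries were close to each other, with a SD of 0.166 on the log2 scale, and lay above all FO B libraries. The log2 difference between ABCs and FO B (Aged) was 1.96 (SE 0.13), a ratio of means of 4.70.

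Rgs10, one of the smallest RGS proteins, acts on Gi-family subunits. It was at 2.38, 3.27 and 1.20 FPKM in FO B (Young), 1.86, 3.36 and 5.10 FPKM in FO B (Aged), and 19.1, 12 and 22.3 FPKM in ABCs, from 40, 62 and 298 reads per group. ABCs lay above both FO B groups, which overlapped. The log2 difference was 2.11 (SE 0.41), a ratio of means of 5.18.

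Macrophages also express several of these genes, so their markers were set beside them. The 9 macrophage and monocyte markers summed to 199 to 239 FPKM in ABCs and 11.4 to 18.4 FPKM in FO B (Aged), with 3 of 9 above in all ABC libraries, and Adgre1 alone made up 174 to 222 FPKM of the sum in ABCs. Csf1r was at most 0.831 FPKM and C1qa at most 0.841 FPKM in ABCs. Lyz2 was at 2.22 to 7.02 FPKM in ABCs and 2.28 to 7.06 FPKM in FO B (Aged). T cell markers summed to at most 2.90 FPKM and neutrophil markers to at most 28.6 FPKM in any library. NK cell markers summed to 24.5 to 38.0 FPKM in ABCs, of which Prf1 made up 24.1 to 38.0 FPKM. Ncr1 was at most 0.0882 FPKM. Plasma cell markers summed to 191 to 225 FPKM in ABCs and 129 to 148 FPKM in FO B (Aged). Of these 6 markers, 4 were above in all ABC libraries (Sdc1, Prdm1, Xbp1 and Jchain) and 0 below. Most of the sum was Xbp1, at 126 to 142 FPKM in ABCs and 102 to 122 FPKM in FO B (Aged). Jchain was at 12.5 to 61.6 FPKM in ABCs and 2.73 to 8.44 FPKM in FO B (Aged). The part of such cells in these levels was not tested.

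Rgs18, best known from platelets and megakaryocytes, was the RGS gene with the largest difference towards FO B cells. Its level was 15.6, 12.3 and 15.4 FPKM in FO B (Young), 17.8, 15.8 and 12.2 FPKM in FO B (Aged), and 1.63, 2.94 and 0.294 FPKM in ABCs. The FO B groups overlapped and all ABC libraries lay below them. Reads numbered 631, 675 and 70 per group, with 22, 44 and 4 in the ABC libraries. ABCs held 0.106 times the FO B (Aged) mean (0.0629 times without ABCs (Aged) replicate 2, a setting added after the data were seen), a log2 difference of -2.76 (SE 0.49). The 7 platelet and megakaryocyte markers summed to 0.548 to 2.82 FPKM over all 9 libraries, and Pf4 was listed at 0 in 5 of them.

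Rgs13, known from germinal center B cells and mast cells, was low and variable. It was at 4.29, 5.22 and 3.70 FPKM in FO B (Young), 2.49, 2.44 and 2.19 FPKM in FO B (Aged), and 2.84, 2.06 and 0.188 FPKM in ABCs. The aged groups overlapped, and both were below FO B (Young). In reads, the ABC libraries held 30, 24 and 2, against 26, 31 and 25 in FO B (Aged). The log2 difference between ABCs and FO B (Aged) was -0.48 (SE 0.52), and it was 0.03 without ABCs (Aged) replicate 3, so its direction rested on that library. Of the germinal center markers, 2 of 7 were above FO B (Aged) in all ABC libraries and 2 below, and their sum of 114 to 127 FPKM in ABCs, against 42.6 to 54.2 FPKM, was mostly Fas, at 99.3 to 116 FPKM.

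Among ABC libraries, the level of Rgs18 was in the same order as those of Fcer2a and Cr2, though how many of all genes share this order was not counted. Fcer2a, which encodes CD23, was at 0.582%, 0.974% and 0.065% of its FO B (Aged) mean in ABC replicates 1, 2 and 3, and Cr2, which encodes CD21, at 3.27%, 5.56% and 0.494%. Rgs18 was at 10.7%, 19.3% and 1.92%, higher than both in each library. Rgs13 was at 120.0%, 86.9% and 7.94%, also lowest in replicate 3. Other genes of the gate were highest in replicate 3, with Itgam, which encodes CD11b, at 46.2, 53.6 and 65.7 FPKM, and Spn, which encodes CD43, at 62.6, 54.1 and 86.7 FPKM. Spn was thus above its 2.75 to 3.32 FPKM in FO B (Aged) in all ABC libraries, although the gate is CD43-. CD23, CD21, CD11b and CD43 were used for the sort, and the part of their transcripts in the levels of Rgs18 and Rgs13 was not tested.

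**Figure D2:**
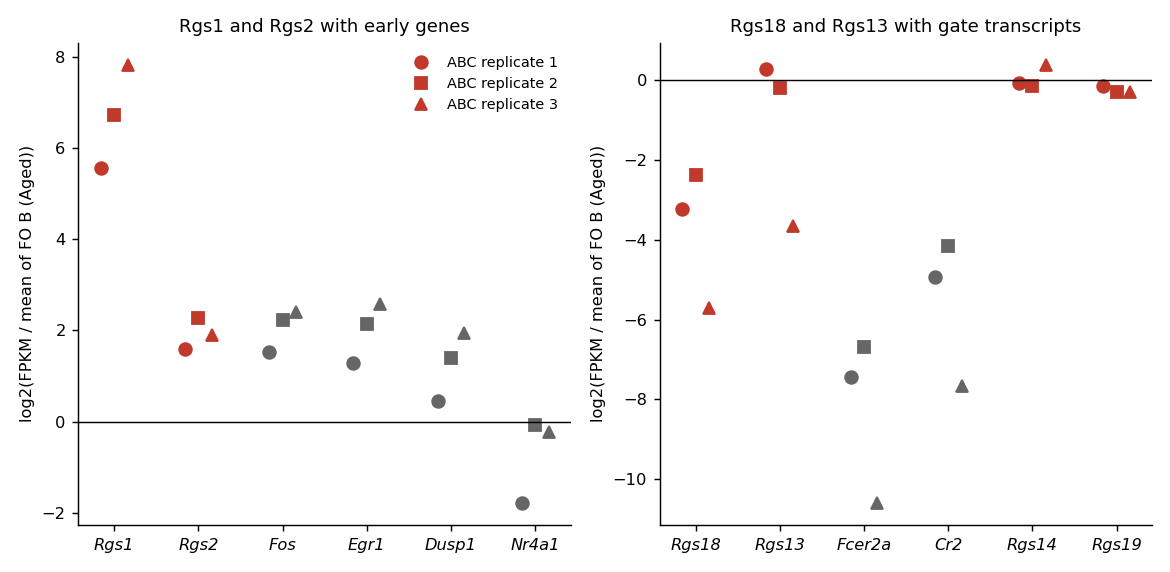
log2 of the FPKM of each ABC library over the mean of FO B (Aged) (vertical axis) for RGS genes (red) and other genes (grey), with circle, square and triangle for ABC replicates 1, 2 and 3 and a line at no difference. Rgs1, Fos, Egr1 and Dusp1 are lowest in replicate 1 and highest in replicate 3, and Rgs18, Rgs13, Fcer2a and Cr2 are lowest in replicate 3.

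Rgs16, a member that lymphocytes induce on activation, was close to absent. It was at 0.053, 0.107 and 0 FPKM in FO B (Young), 0 in all of FO B (Aged), and 0.573, 0.363 and 0 FPKM in ABCs, from 3, 0 and 17 reads per group. The ABC reads lay in replicates 1 and 2 (10 and 7), so the groups overlapped. Set against a floor of 3 reads over the FO B (Aged) group, the 17 ABC reads were 5.97-fold higher per depth. The counting error of the 17 reads is not in this ratio, so it is no lower bound. Against FO B (Young) the ratio of reads per depth was 5.88 (95% interval 1.70 to 31.3, exact, for counting error only). Both ratios pool the reads of a group, leave out the spread between libraries and are no test of Rgs16.

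The remaining 12 RGS genes listed contributed little. Rgs8 and Rgs21 were listed at 0 in all libraries. Rgs12 was the only one with a group mean of at least 1 FPKM, at 1.10, 1.37 and 1.43 FPKM in ABCs against 0.689, 0.444 and 0.513 FPKM in FO B (Aged). Together the 12 made up 0.434% of the summed RGS level in ABCs.

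The summed level of all 21 RGS genes was 349 ± 6.58 FPKM (SD, n = 3) in FO B (Young), 353 ± 4.38 FPKM in FO B (Aged) and 625 ± 192 FPKM in ABCs. The ABC libraries, at 465, 573 and 838 FPKM, were all above the others. Rgs19 made up 70.3% and 68.9% of the sum in FO B (Young) and FO B (Aged) and 35.0% in ABCs, where the libraries were at 47.1%, 34.3% and 23.5%. Rgs1 made up 0.260%, 0.571% and 37.4% in the 3 groups, and 20.5%, 37.2% and 54.6% in the ABC libraries. The share of Rgs2 was 4.75%, 4.0% and 9.11%, that of Rgs14 was 17.6%, 19.1% and 11.6%, and that of Rgs18 was 4.14%, 4.33% and 0.300%. In ABC replicates 2 and 3, Rgs1 was above Rgs19 as the most abundant family member.

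**Figure D3:**
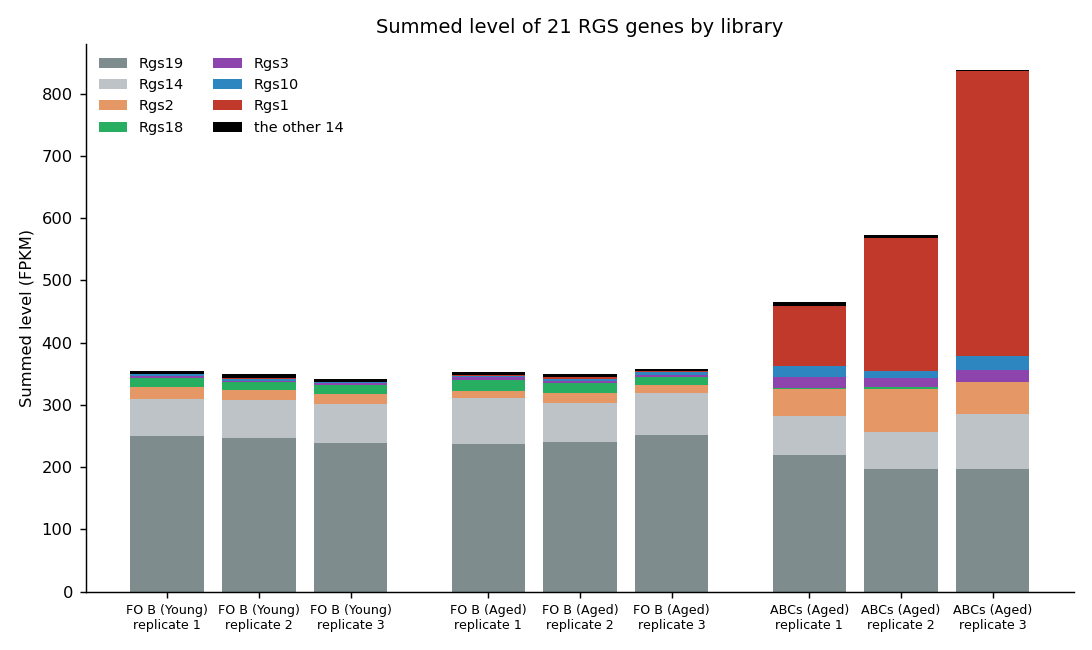
Summed FPKM of 21 RGS genes (vertical axis, linear from 0) in each of 9 libraries, stacked by gene. The FO B libraries are mostly Rgs19 and Rgs14 at 342 to 358 FPKM in all, and the ABC libraries reach 465, 573 and 838 FPKM with Rgs1 as the part that differs most.

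On chromosome 1, neighbours did not share a pattern. From Rgs2 to Rgs13, Rgs1, Rgs21 and Rgs18, the gaps are 134492, 64923, 267405 and 185015 bases. The means of FO B (Aged) and ABCs were 14.1 and 54.5 FPKM for Rgs2, 2.37 and 1.70 FPKM for Rgs13, 2.01 and 255 FPKM for Rgs1 and 15.3 and 1.62 FPKM for Rgs18, with Rgs21 at 0. Rgs2 and Rgs1, on either side of Rgs13, were higher in ABCs, and Rgs18 at the far end was lower. Within 500000 bases before the span, Uchl5, a deubiquitinase gene, was at 24.4, 25.9 and 23.8 FPKM in the 3 groups.

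**Figure D4:**
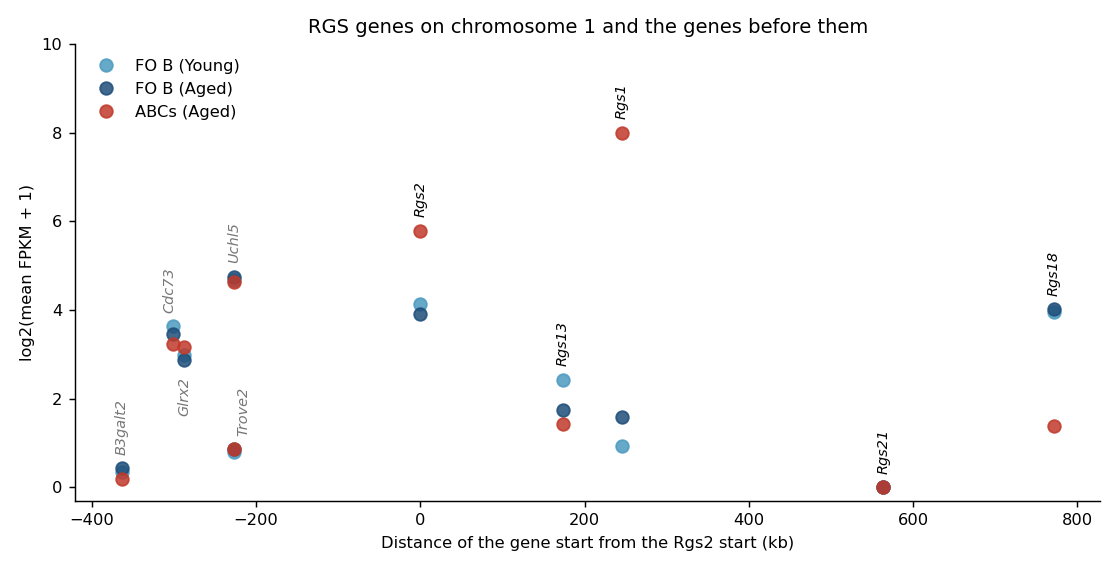
log2(mean FPKM + 1) of each group (vertical axis, colours) against the distance of each gene's start from that of Rgs2 in kb (horizontal axis), for the RGS genes of chromosome 1 and the genes before them. Rgs2 and Rgs1 are higher in ABCs, Rgs18 lower, Rgs21 is at 0, and the genes before Rgs2 lie close together in the 3 groups.

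Age was compared within FO B cells. Among the 8 RGS genes that averaged at least 1 FPKM, Rgs1 was higher in every aged library than in every young one, by 0.63 on the log2 scale (SE 0.30), and Rgs13 was lower in every one, by -0.67 (SE 0.12). By the same rule 9.64% of 10122 genes lay above and 8.96% below, and nothing is read from the 1 and 1. The means of Rgs1 and Rgs13 in aged mice were 2.21 and 0.538 times those in young mice, from 27 against 62 reads of Rgs1 and 150 against 82 reads of Rgs13. By library, Rgs1 had 10, 12 and 5 reads in FO B (Young) and 15, 34 and 13 in FO B (Aged). Its lack of overlap thus rested on 12 against 13 reads. Without FO B (Aged) replicate 2 the Rgs1 ratio was 1.62, a setting added after the data were seen. The log2 differences of the other members with such a mean, all with overlap, were -0.22 for Rgs2 (SE 0.14), 0.31 for Rgs3 (SE 0.13), 0.42 for Rgs10 (SE 0.42), 0.14 for Rgs14 (SE 0.07), 0.07 for Rgs18 (SE 0.18) and -0.01 for Rgs19 (SE 0.03). The sign of Rgs18 and Rgs19 turned when single libraries were left out. Both comparisons share the FO B (Aged) libraries, so the values of Rgs1 and Rgs13 in them are not separate evidence.

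Since an RGS protein acts on G-alpha, the rest of the pathway was tested with limma on log2(FPKM + 1), over all genes that averaged at least 1 FPKM in the 6 libraries and with Benjamini-Hochberg adjustment (FDR). Of 99 genes listed, 96 were found and 61 tested between ABCs and FO B (Aged), where 16 rose and 16 fell at an FDR under 0.05. Over all 10412 genes tested, 19.4% rose and 16.5% fell. Gnaz, Gng3, Pik3r6 and Grk5, all among those that rose, averaged only 0.136, 0.149, 0.154 and 0.862 FPKM in FO B (Aged). They passed the filter only through their level in ABCs, so they could only be higher there. With no filter on low values, 17 pathway genes rose and 15 fell. The median absolute log2 difference was 0.43 for the pathway and 0.27 for all genes tested. The 16 that fell became 8 without FO B (Aged) replicate 1 and 9 without replicate 2. Low genes moved with the pseudocount, and at 0.01 the log2 differences given next for Gnaz, Pik3r6 and Gna15 became 6.63, 6.28 and -3.95.

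Gnai2 and Gnai3, which encode abundant Gi subunits, did not pass the test. Gnai2 was at 329.5, 341 and 346 FPKM in FO B (Aged) and 368, 363 and 387 FPKM in ABCs. Its log2 difference was 0.14 (SE 0.06, limma FDR = 0.115), and Gnai3 differed by 0.17 (SE 0.06, limma FDR = 0.0588). Over the alternatives the limma FDR of Gnai3 ran from 0.0407, with all 9 libraries in the fit, to 0.218. Gnaq, the main Gq-type subunit bound by Rgs2, differed by -0.0011 (SE 0.13, limma FDR = 0.995). Of 10 G-alpha genes tested, 2 rose and 3 fell. Gnaz, a Gi-family subunit, rose by 2.0 (limma FDR = 0.00277) from at most 0.409 FPKM, and Gnas, the Gs subunit, rose by 0.39 (limma FDR = 0.00339). Gna15, a Gq-family subunit, fell by 2.60 (limma FDR = 0.00101), and it was at 1.25, 1.70 and 0.138 FPKM in ABCs. Gna13, which restrains B cells in germinal centers, fell by 0.78 (limma FDR = 0.000421), and Gna12 fell by 1.30 (limma FDR = 0.0386, up to 0.120 over the alternatives).

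Of 12 other genes for proteins with an RGS-homology domain, 2 rose and 7 fell. Grk5, a receptor kinase, rose by 1.98 (SE 0.14, limma FDR = 0.000101), and Arhgef12, a guanine nucleotide exchange factor driven by G12/13, rose by 1.40 (SE 0.12, limma FDR = 0.000226). Arhgef1, the main G13-coupled exchange factor of lymphocytes, fell by 0.33 (limma FDR = 0.0099). Snx25 fell by 1.46 (limma FDR = 0.00727) and Arhgef11 by 1.06 (limma FDR = 0.00248).

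Of 8 G-beta and G-gamma genes tested with limma, 4 rose and 0 fell, and 0 fell at an unadjusted p under 0.05. Gng3, among the 4, passed the filter only through ABCs. Gng12 was at 2.17, 2.13 and 2.11 FPKM in FO B (Aged) and 19.7, 22.5 and 27.3 FPKM in ABCs, and rose by 2.93 (SE 0.13, limma FDR = 1.7e-05). Gnb4 rose by 2.32 (SE 0.30, limma FDR = 0.00121). Among 10 modulators and arrestins, 3 rose and 1 fell. Nucb1 and Nucb2, which encode nucleobindins, rose by 0.74 (limma FDR = 0.00189) and 0.43 (limma FDR = 0.0132, up to 0.0534), and Arrb2, a beta-arrestin, fell by 0.56 (limma FDR = 0.00464).

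Of 7 effectors tested, 2 rose and 2 fell. Pik3r6, a regulatory subunit of the G-beta-gamma-driven PI3-kinase gamma, rose by 3.26 (SE 0.20, limma FDR = 6.3e-05), whereas its catalytic subunit Pik3cg fell by 0.47 (limma FDR = 0.0169, up to 0.0641). Among the phospholipases C, Plcb3 rose by 0.46 (limma FDR = 0.0427, up to 0.114) and Plcb2 fell by 1.78 (limma FDR = 0.0408, up to 0.111). Plcb2 was at 7.45, 7.97 and 0.906 FPKM in ABCs, and without replicate 3 the log2 difference was -1.05 (limma FDR = 0.000239).

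Of the 14 receptors that position B cells, 3 rose and 3 fell. S1pr3 rose by 3.73 (SE 0.37, limma FDR = 0.000405) and S1pr1, the receptor for exit into blood, rose by 0.47 (SE 0.07, limma FDR = 0.00304). Cxcr5, which draws B cells to follicles, was at 166, 148 and 164 FPKM in FO B (Aged) and 56.6, 54.6 and 49.1 FPKM in ABCs, and fell by 1.56 (SE 0.08, limma FDR = 2.7e-05). Gpr174 fell by 0.94 (limma FDR = 0.0171, up to 0.0585). Between FO B (Aged) and FO B (Young), 56 pathway genes were tested, of which 1 rose and 0 fell at a limma FDR under 0.05 (9 and 4 at an unadjusted p under 0.05), against 0.346% and 0.119% of 10122 genes. The 1 gene was Cxcr3, which rose by 2.68 (SE 0.30, limma FDR = 0.00872, up to 0.300 over the alternatives).

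**Figure D5:**
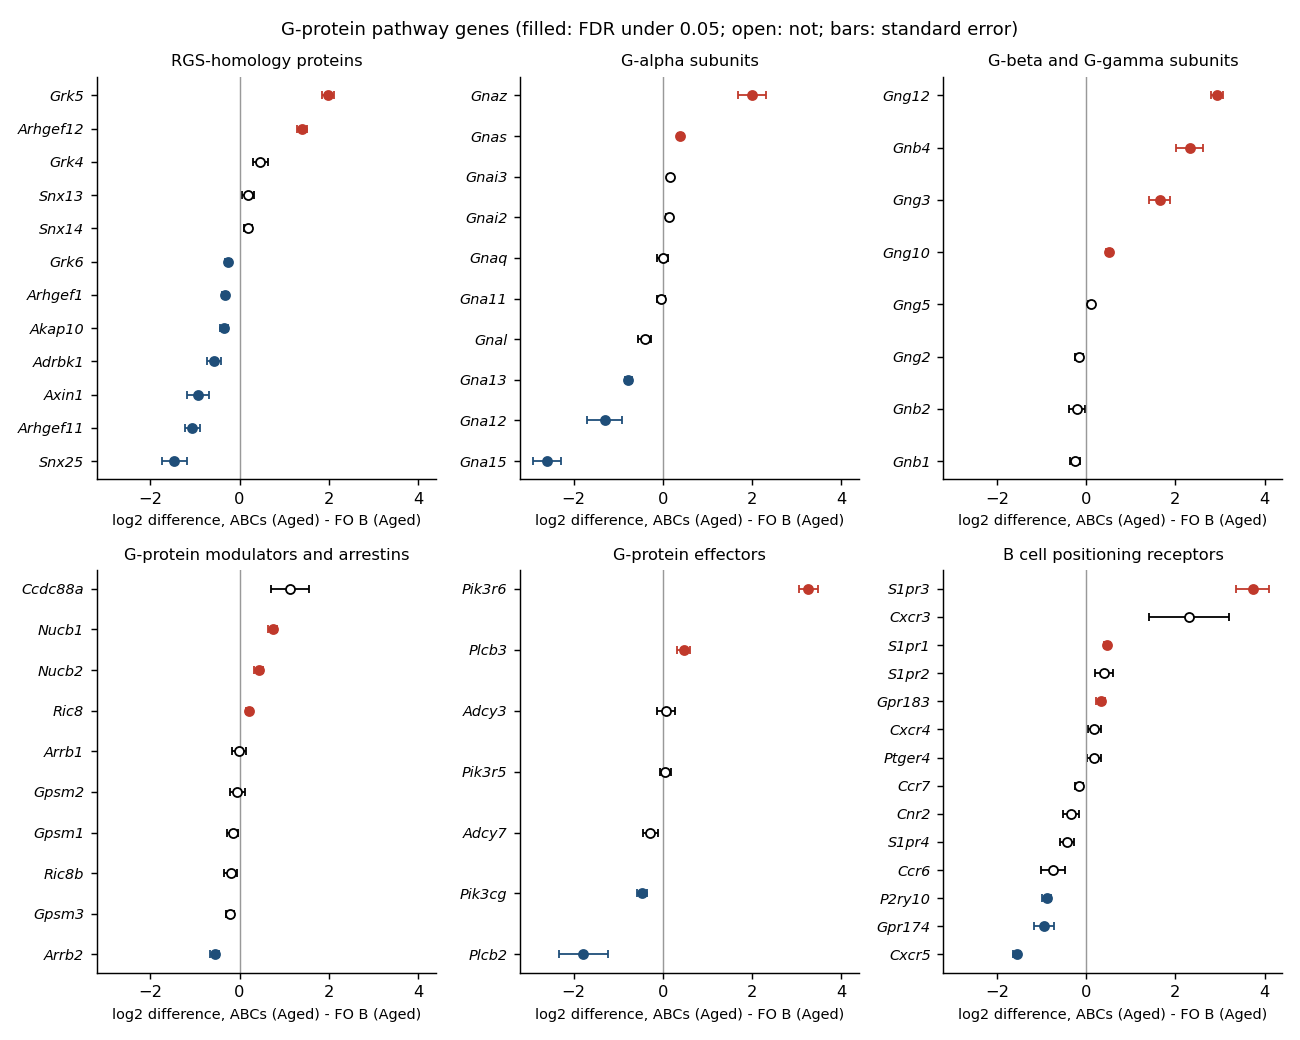
log2 difference between ABCs (Aged) and FO B (Aged) (horizontal axes) with its standard error for 61 pathway genes in 6 lists, 3 libraries per group. Filled red points rose and filled blue points fell at an FDR under 0.05, and open points did not pass, with Gng12, Pik3r6 and S1pr3 furthest to the right and Gna15 furthest to the left.

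The genes whose levels most resembled those of each RGS gene were found from the root mean square (RMS) difference of log2(FPKM + 1) over the 9 libraries, after each of 10375 genes was centred on its own mean. Rgs1 was nearest to Fgl2 (RMS 0.608) and Adgre1 (0.71), which are both far from it. For Rgs2 they were Gm2848 (0.153) and Tmbim1 (0.16), and Ap1m2 (0.14) was among those for Rgs3. Rgs10 was nearest to Tmem141 (0.265) and Grk5 (0.303), Rgs13 to Nedd4 (0.185) and Il4i1 (0.193), and Rgs18 to Sh2d2a (0.213) and Pkib (0.236). Rgs14 was nearest to Kif3c (0.021), which is itself at only 1.10 to 1.43 FPKM, and to Ubqln1 (0.059), and Rgs19 to Hnrnph2 (0.034) and Sdcbp (0.035). These are descriptions over 3 groups of 3 libraries, in which any gene that differs alike between groups comes out near.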

How the data were processed

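RNA was taken from sorted splenic B cells, 9 libraries in all, and cDNA and libraries were prepared with the SMART-Seq HT and Nextera kits. The authors mapped single-end reads to mm10 and deposited an FPKM value for each gene symbol in each library, that is, reads scaled to transcript length and library size, with no further scaling stated. The submitters' processing notes name TopHat2 2.1.1, Bowtie2 2.2.8, SAMtools 0.1.18 and Cuffdiff 2.2.1, and the methods of the study give other versions of TopHat, Bowtie2 and SAMtools. The gene annotation is not given in the sources used here. Groups were taken from the sample titles.

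The RGS genes and all gene lists were chosen with earlier results of these data known, so RGS genes were described with no test. A pseudocount of 1 was added before log2. Pathway genes were tested with limma 3.58.1 in R 4.3.3 (lmFit, eBayes with a trend) in the 6 libraries compared, for genes that averaged at least 1 FPKM there, and p-values were adjusted over all genes tested. The step was tested on simulated data. With 3 libraries per group an exact permutation test of a single gene cannot go below 0.1. Libraries are the replicates, and each p-value sets a group difference against the spread between them, which eBayes moderates towards that of genes of like level.

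Whole reads were recovered where the FPKM values of a gene were whole multiples of 1 step (tolerance 0.02 reads, wider for high counts). This held for 8313 of 17513 genes with reads in at least 2 libraries and for Rgs1, Rgs10, Rgs13, Rgs16 and Rgs18. Where the search over all libraries failed, the step was taken from the lower libraries, and very high values were not checked. The Rgs1 reads of ABCs (Aged) replicates 2 and 3, 2160 and 4230, are thus rounded values that were not checked. They were used for floors and intervals, which cover counting error only. Positions came from GENCODE M21 on GRCm38. Named genes were the RGS genes, Gnai2, Gnai3, Gnaq, Gna13 and Arhgef1, other RGS genes with a group mean of at least 1 FPKM, the 2 genes with the largest log2 difference in each direction that passed the test in each pathway list, pathway genes that passed it with age, the 2 nearest genes of each RGS gene, and defining markers. Uchl5 and Rgs21 were named after their values were seen. As alternatives, the pseudocount was set to 0.1 or 0.01, the filter was dropped or raised to 5 FPKM, and values were scaled to the upper quartile, to TPM or by quantiles. Fits were also made with no eBayes trend, with the 9 libraries together, with a block for the replicate number, and without single libraries. Python 3.11.15, numpy 2.4.6, pandas 2.3.3, scipy 1.17.1 and matplotlib 3.10.9 were used for the rest. Other assays of the study were not analysed here. Some items that these rules name are not reported here.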

Additional observations from a re-analysis of the deposited data

How the results depend on the processing

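The count of pathway genes that rose in ABCs against FO B (Aged), 16, lay between 11 and 20 over the alternatives, and from 14 to 17 where single libraries were omitted. The count that fell, also 16, lay between 14 and 19 over the others and between 8 and 18 with each library left out. With age, the 1 gene that rose became 0 with no filter on low values and 0 with all 9 libraries in the fit. Leaving out each library kept it at 1, and the 0 that fell stayed at 0 throughout. With the replicate block, 15 rose and 17 fell in ABCs, and of the genes named with a test, Plcb3 lost its call (limma FDR = 0.0638). Libraries with the same number shared little, with correlations of deviations of 0.085, -0.019 and 0.108 for ABCs and FO B (Aged) and -0.054, 0.138 and -0.092 for the FO B groups. Replicates 1 and 3 of the first comparison and replicate 2 of the second correlated best with their own number, so the numbers were not taken to pair libraries. Gnai2 turned from 0.14 to -0.0023 with quantile normalization, and Gnaq from -0.0011 to -0.088 to 0.043 with libraries left out. Gnai3 gained a call with all 9 libraries in the fit (limma FDR = 0.0407). The log2 differences of Rgs13 and Rgs14 between ABCs and FO B (Aged), and of Rgs18 and Rgs19 with age, changed sign in at least 1 setting. That of Rgs13 in ABCs ran from -1.17 to 0.03, and that of Rgs1 with age from 0.39 to 1.13. Those of Rgs1 (5.62 to 6.80), Rgs2 (1.68 to 2.02), Rgs3 (1.88 to 2.23), Rgs10 (1.83 to 2.44), Rgs18 (-3.73 to -2.32) and Rgs19 (-0.33 to -0.23) in ABCs kept theirs. The cause of these changes was not tested. Depth limits Rgs16, at 0 to 10 reads per library, and Rgs13. It also limits Rgs1 and Rgs10 in FO B cells, at 5 to 34 and 7 to 30 reads per library.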
